A study of Mus musculus with 2 samples.

Results

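Cholesterol synthesis and sterol control was followed here through 32 listed genes, read in 2 sorted populations of mouse CD4+ T cells. The members were taken by symbol: every probe set of the array that the platform annotation pairs with exactly 1 listed gene was used. This gave 64 probe sets of 29 genes, out of 45101 probe sets and 18193 genes in all. Signals of Acat2, Soat1 and Nr1h2 were not analysed here, and these genes enter only the search of upstream stretches. The genes were grouped as the mevalonate path (7 listed genes), the sterol steps that follow it (11), uptake, efflux and transport of sterols (7) and the sterol sensors (7).

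Both populations came from the DEREG strain, which carries green fluorescent protein (GFP) under control of the Foxp3 promoter, so that GFP marks cells that transcribe the regulatory T cell factor Foxp3. By background knowledge the strain's transgene also encodes a diphtheria toxin receptor, which the mice of both groups carry. Cells from a negative selection for CD4+ T cells were sorted on GFP, into GFP+ cells (GFP-positive, labelled FoxP3+) and cells without GFP (GFP-negative, labelled FoxP3neg). Each group is 1 Affymetrix whole-genome array, with no replicate, so no difference below has a test, and every value describes these 2 arrays. The sources used here do not state age, sex, organ, how many mice were used or whether they were treated. Because each value comes from bulk RNA, fewer cells with a transcript and less transcript per cell cannot be told apart.

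Cells make cholesterol from acetyl-CoA. The mevalonate path builds isoprene units, which are joined to squalene, closed to a ring and trimmed to cholesterol, and which also feed the lipid anchors of many signalling proteins. Transcription of these enzymes is driven by the SREBP factors. SCAP escorts SREBP out of the endoplasmic reticulum when sterols are scarce, INSIG proteins hold the complex back when they are plentiful, and the LXR receptors answer to sterol excess by raising efflux pumps. In T cells, SREBP-driven synthesis is known for supplying membrane to dividing blasts, and the mevalonate path for supporting regulatory T cells.

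Signals are MAS5 intensities, on a linear scale with 1 value for each probe set on each array. A gene is represented by its brightest probe set. Signals at or under 68.85 were treated as not distinguishable from background, a floor taken from genes restricted to other organs, and were raised to it before a log2 difference (GFP-positive minus GFP-negative) was formed. A gene with only 1 signal above the floor has a bound, written as at least N-fold. Of the 29 genes, 22 were above the floor on both arrays, 4 on 1 array and 3 on neither. The 4 with a bound could enter only through the array where they were higher, so the floor fixes their sign. Technical scatter within these arrays was measured as the standard deviation of probe set log2 differences around the mean of their gene. It was 0.38 log2, pooled over 7631 probe sets of 3025 genes. Only genes with more than 1 probe set above the floor on both arrays entered this measure. The same measure over the members was 0.43 (16 probe sets of 7 genes). It holds no variation between mice or sorts.

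Both arrays had a 2% trimmed mean signal of 150.0, and 39.1% and 36.7% of probe sets lay above the floor on the GFP-positive and GFP-negative array. The 3′ to 5′ signal ratios of Actb and Gapdh were 5.30 and 9.27 on the GFP-positive array and 3.57 and 6.24 on the GFP-negative array, and the part of this difference in the results was not tested. Foxp3 had signals of 504.4 and 173.2, in the direction of the labels, and was above the floor on the GFP-negative array too. Of the 5 regulatory T cell markers (Foxp3, Il2ra, Ctla4, Tnfrsf18 and Ikzf2) 5 were higher on the GFP-positive array, beside 48.3% of all genes. Their summed signals were 9371.5 and 4535.6, with all 5 above the floor on both arrays. RNA of the sort labelled FoxP3neg thus held these transcripts too. All 8 CD4+ T cell markers were above the floor on both arrays (summed signal 13769 and 15390). In GFP-positive cells 7 of 8 were lower, beside 51.7% of all genes, and 3 were past 1.5-fold lower, beside 7.52%. Those 3 were Cd4 (256.5 and 415.1), Cd3e (540.9 and 862.2) and Cd28 (937.2 and 1429.8). The part of this in the results was not tested. Of 7 B cell markers (summed signal 361.5 and 276.0) 1 was above the floor on each array, Cd79b at 221.9 and 70.8. Of 11 macrophage and dendritic cell markers 3 were above it on each (411.6 and 471.1), and of 4 CD8 T and NK cell markers 1 on each (198.1 and 225.6). Of 4 erythroid and platelet markers 0 and 1 were above it (59.5 and 140.3), and no marker was listed at 0. Markers of cycling cells summed to 20694 and 17591, higher on the GFP-positive array for 7 of 7 genes, with a median difference of 0.18 log2, and their part in the results was not tested.

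Most genes of the pathway had similar signals in both populations, and a few enzymes stood out in GFP-positive cells. Idi1 was 2.65-fold and Sqle 2.07-fold higher there, and Mvd 1.76-fold, while Pmvk was 1.53-fold lower. Among the 26 members with a signal over the floor on either array, 13 were higher and 13 lower, and their median was 0.04 log2 beside −0.01 over all 9718 such genes. Past 2-fold, 2 of 26 (7.69%) were higher, beside 1.55% of all genes, and 0 were lower, beside 1.57%. Past 1.5-fold, 3 (11.5%) were higher and 1 (3.85%) lower, beside 8.04% and 7.52% of all genes. The 1.5-fold shares thus lie near those of all genes, and the 2-fold share rests on 2 genes.

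**Figure D1:**
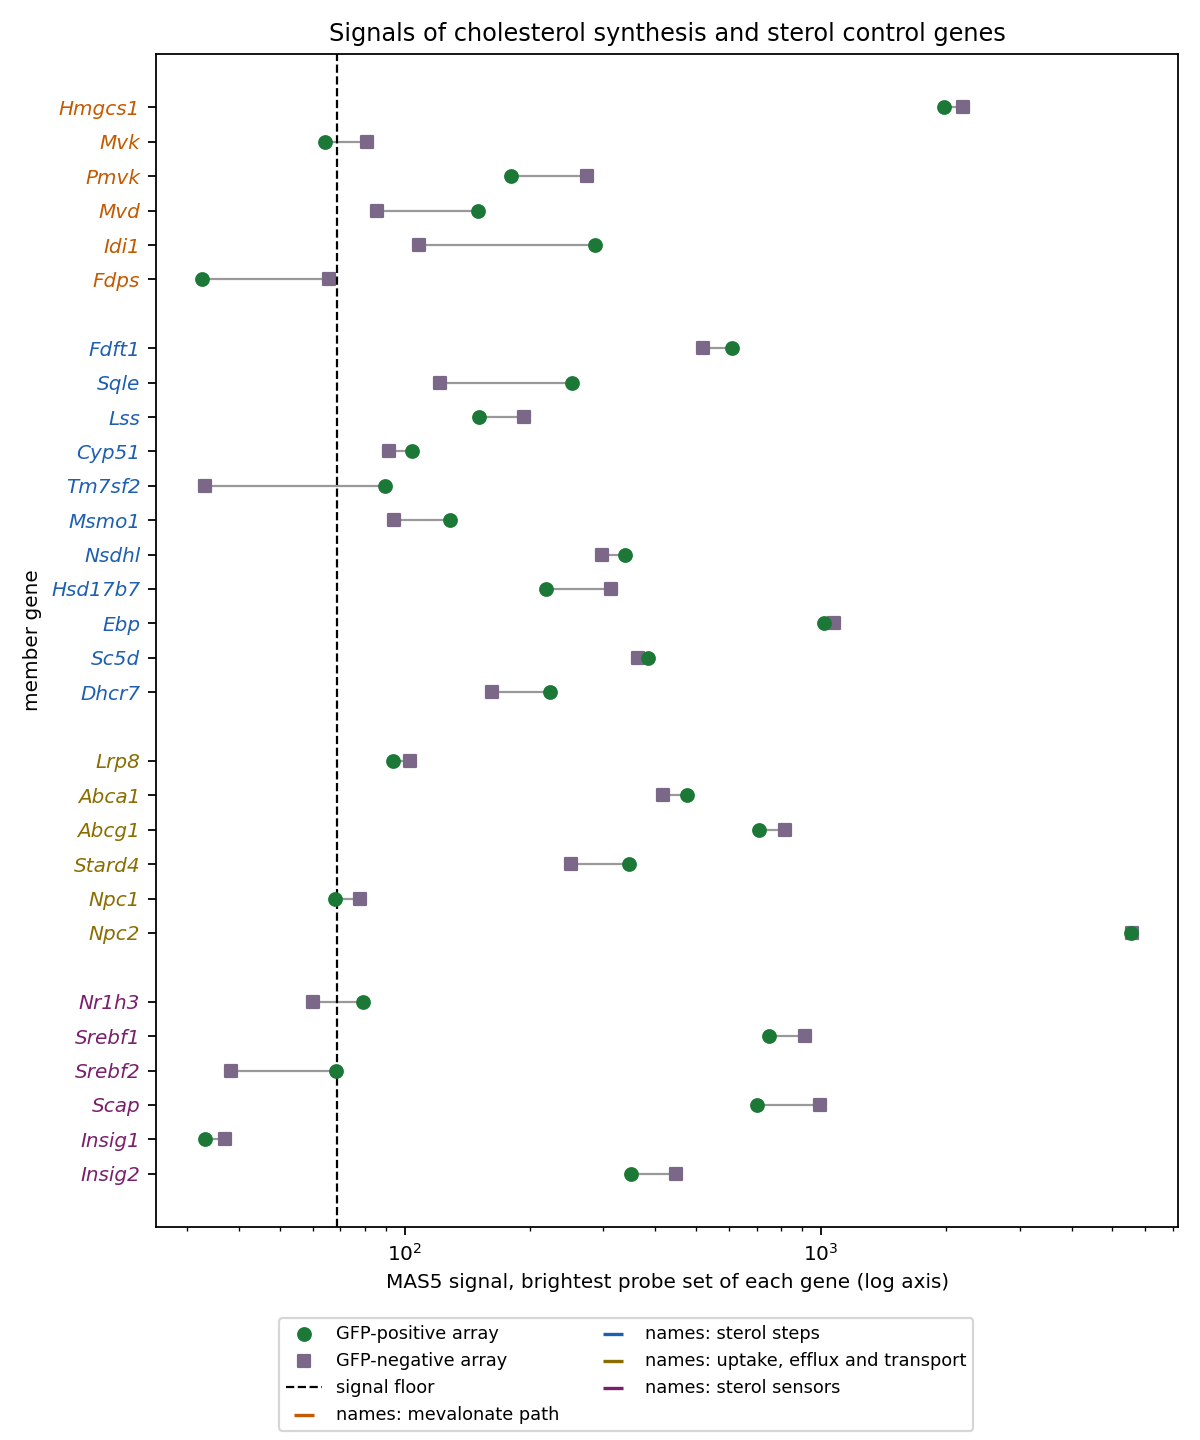
MAS5 signal (log axis) of the brightest probe set of each of 29 genes on the GFP-positive array (circles) and the GFP-negative array (squares), with the floor of 68.85 as a dashed line; there is 1 array per group and no error bar. Idi1 (286.0 and 107.9) and Sqle (252.1 and 121.7) show wide gaps with both signals above the floor, whereas the circle and square of Npc2 (5549.3 and 5585.2) lie on each other.

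The mevalonate path held the widest range. Hmgcs1, the synthase that makes HMG-CoA, gave 1970.0 for GFP-positive cells against 2195.3 for the others, a 1.11-fold lower value that is smaller than the scatter between probe sets. Mvk, the mevalonate kinase, had 64.2 and 81.1, so that only the GFP-negative signal passed the floor and the gene was at least 1.18-fold lower in GFP-positive cells. Pmvk, which adds the next phosphate, had 179.5 and 274.6 (−0.61 log2). The following step went the other way: Mvd, the decarboxylase that yields the isoprene unit, had 150.2 and 85.5 (0.81 log2). Idi1, which interconverts both forms of that unit, had 286.0 and 107.9 (1.41 log2), at rank 41 from the top of 9718 genes. Fdps, which joins the units to farnesyl diphosphate, was under the floor on both arrays (32.6 and 65.6).

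Consecutive steps of this path therefore differed in opposite directions on the same arrays, with Pmvk lower in GFP-positive cells and Mvd and Idi1 higher by their brightest probe sets. The median of the 5 genes above the floor was −0.16 log2, and that of the 4 above it on both arrays was 0.33 log2, so the median says little about a group split in this way. Further probe sets add limits. A further probe set of Hmgcs1 favoured GFP-positive cells (108.6 and 49.5, at least 1.58-fold) and another lower (55.1 and 87.4, at least 1.27-fold), opposite to each other. The further probe set of Idi1 was under the floor (31.4 and 19.5), as was that of Mvd (54.2 and 62.0). With the mean over every probe set in place of the brightest, dim ones included, Idi1 had 94.8 and 45.9, a bound of at least 0.46 log2 because the GFP-negative mean fell under the floor (1.05 log2 if no floor is set). The Mvd difference was then 0.31 log2 and the Hmgcs1 difference 0.60, both with means above the floor. With the floor doubled to 137.7, Mvd was at least 0.13 log2 higher.

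The stretches upstream of 3 of these genes are shown because the genes belong to 1 path and yet differed by −0.16, −0.61 and 1.41 log2. They are the 250 bases before the annotated start, 5′ to 3′, from RefSeq on build GRCm38.p6, for Hmgcs1 at chr13:119690101-119690350 (plus strand), Pmvk at chr3:89454291-89454540 (plus strand, the first of 2 annotated starts) and Idi1 at chr13:8885356-8885605 (plus strand). Capitals mark matches on either strand to CCAAT, the box bound by NF-Y (ATTGG when it lies on the opposite strand), and to TCACNCCAC, a form of the sterol regulatory element bound by SREBP. The marked matches do not overlap.
Hmgcs1: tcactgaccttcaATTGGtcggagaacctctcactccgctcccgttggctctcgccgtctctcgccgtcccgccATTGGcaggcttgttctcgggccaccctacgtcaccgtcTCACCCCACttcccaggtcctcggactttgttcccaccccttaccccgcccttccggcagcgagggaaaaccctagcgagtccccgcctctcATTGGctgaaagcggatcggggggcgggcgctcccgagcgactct
Pmvk: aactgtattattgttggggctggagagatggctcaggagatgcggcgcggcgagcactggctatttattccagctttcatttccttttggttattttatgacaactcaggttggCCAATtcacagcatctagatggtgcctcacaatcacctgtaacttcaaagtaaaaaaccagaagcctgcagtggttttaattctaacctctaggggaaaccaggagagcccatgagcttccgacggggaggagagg
Idi1: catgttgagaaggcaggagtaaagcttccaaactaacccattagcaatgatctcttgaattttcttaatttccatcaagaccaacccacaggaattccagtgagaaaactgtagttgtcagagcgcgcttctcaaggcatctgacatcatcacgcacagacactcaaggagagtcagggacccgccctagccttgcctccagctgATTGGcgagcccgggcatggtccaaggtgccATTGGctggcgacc
Hmgcs1 held 3 CCAAT matches, all as ATTGG, and the sterol element TCACCCCAC 137 to 129 bases before its start. Pmvk held 1 CCAAT match, 136 to 132 bases upstream, and the stretch of its other annotated start, not shown, held 0. Idi1 held 2, again as ATTGG, 45 to 41 and 14 to 10 bases upstream, and Hmgcs1 has one of its own at the same 45 to 41 bases. The Hmgcs1 stretch was 64.8% G and C, against 51.2% in Idi1 and 47.6% in Pmvk.

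Upstream stretches of the same length were matched by symbol for 26 of the 32 listed genes, the others being Fdps, Fdft1, Sqle, Abcg1, Stard4 and Npc1. The 26 include Acat2, Soat1 and Nr1h2, whose signals were not analysed, and Srebf2 and Insig1, which were under the floor. They are thus not all genes above the floor, the set they are compared with below. A gene counted if any of its annotated starts held a match. CCAAT occurred in 20 of the 26 (76.9%) and in 14 of the 15 enzyme genes of the mevalonate path and sterol steps (93.3%), beside 40.3% of 7940 genes above the floor and 37.5% of all 27025 genes with a stretch. GGGCGG, the Sp1 box, occurred in 21 of 26 (80.8%), beside 63.8% of genes above the floor. CACGTG, the E-box, which SREBP can also bind, occurred in 6 of 26 (23.1%), beside 10.4%. The letters TCACNCCAC occurred in 1 of 26, Hmgcs1, beside 1.15% of genes above the floor. The LXR element, AGGTCA repeated in the same direction after any 4 bases, occurred in 0 of 26 and in 4 of all 27025 genes. These letter matches are a description and are not shown to be bound in these cells. As examples, Mvk held 5 CCAAT matches, Hsd17b7 and Msmo1 3 each, and Nsdhl, Ebp and Mvd 2 each. The part of any of these boxes in the signal differences was not tested.

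Among the sterol steps, 8 of 11 genes were higher in GFP-positive cells and 3 lower, with a median of 0.18 log2, beside 48.3% of all genes higher. Of the 8, Tm7sf2 has a bound, whose sign the floor fixes. Fdft1, Cyp51, Nsdhl and Sc5d were higher by less than the 0.38 log2 scatter between probe sets. Lss and Ebp were likewise lower by less than that scatter. Sqle, the squalene epoxidase that controls entry into the ring-forming steps, had signals of 252.1 and 121.7 (1.05 log2), at rank 125 of 9718. It has 1 probe set, so this value has no second measurement on these arrays, and with the floor doubled it was at least 0.87 log2 and no longer past 2-fold. Fdft1, the squalene synthase just before it, had 609.9 and 519.7 (0.23 log2), and a further probe set gave 181.1 and 120.7 (0.59 log2). Lss, which closes squalene epoxide to lanosterol, was lower in GFP-positive cells at 150.8 and 193.2 (−0.36 log2).

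The enzymes that trim lanosterol mostly had small positive differences. Cyp51, the lanosterol demethylase, had signals of 103.8 and 91.7 (0.18 log2), and Msmo1, the methylsterol oxidase, 128.5 and 94.4 (0.44 log2). Tm7sf2, a sterol reductase, had 89.5 and 33.1, the GFP-negative signal under the floor, for a difference of at least 1.30-fold in favour of the GFP-positive sort. Nsdhl, a dehydrogenase of the demethylation steps, had 337.2 and 298.0 (0.18 log2). Hsd17b7, the ketoreductase that completes demethylation, was the clearest exception at 218.1 and 313.1 (−0.52 log2), and a further probe set of it gave 78.5 and 101.0 (−0.36 log2). Both of its probe sets above the floor were thus lower in GFP-positive cells, while its partners Msmo1 and Nsdhl were higher.

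The last steps were close to equal or slightly higher. Ebp, the sterol isomerase, had signals of 1016.5 and 1073.3 (−0.08 log2). Sc5d, the desaturase, had 384.0 and 362.5 (0.08 log2), and its further probe set gave 88.1 and 83.6, also 0.08 log2, so both probe sets placed it within 1.06-fold. Dhcr7, which carries out the final reduction to cholesterol, had 223.0 and 162.0 (0.46 log2). Over the mevalonate path and the sterol steps together, 10 of 16 enzyme genes above the floor were higher and 6 lower, the median being 0.18 log2. Of these 16, 2 have bounds whose sign the floor fixes (Tm7sf2 higher and Mvk lower). Except for Idi1, Mvd, Sqle, Pmvk and Hsd17b7, the enzyme genes lay within 1.38-fold by their brightest probe sets, bounds taken at their limit.

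**Figure D2:**
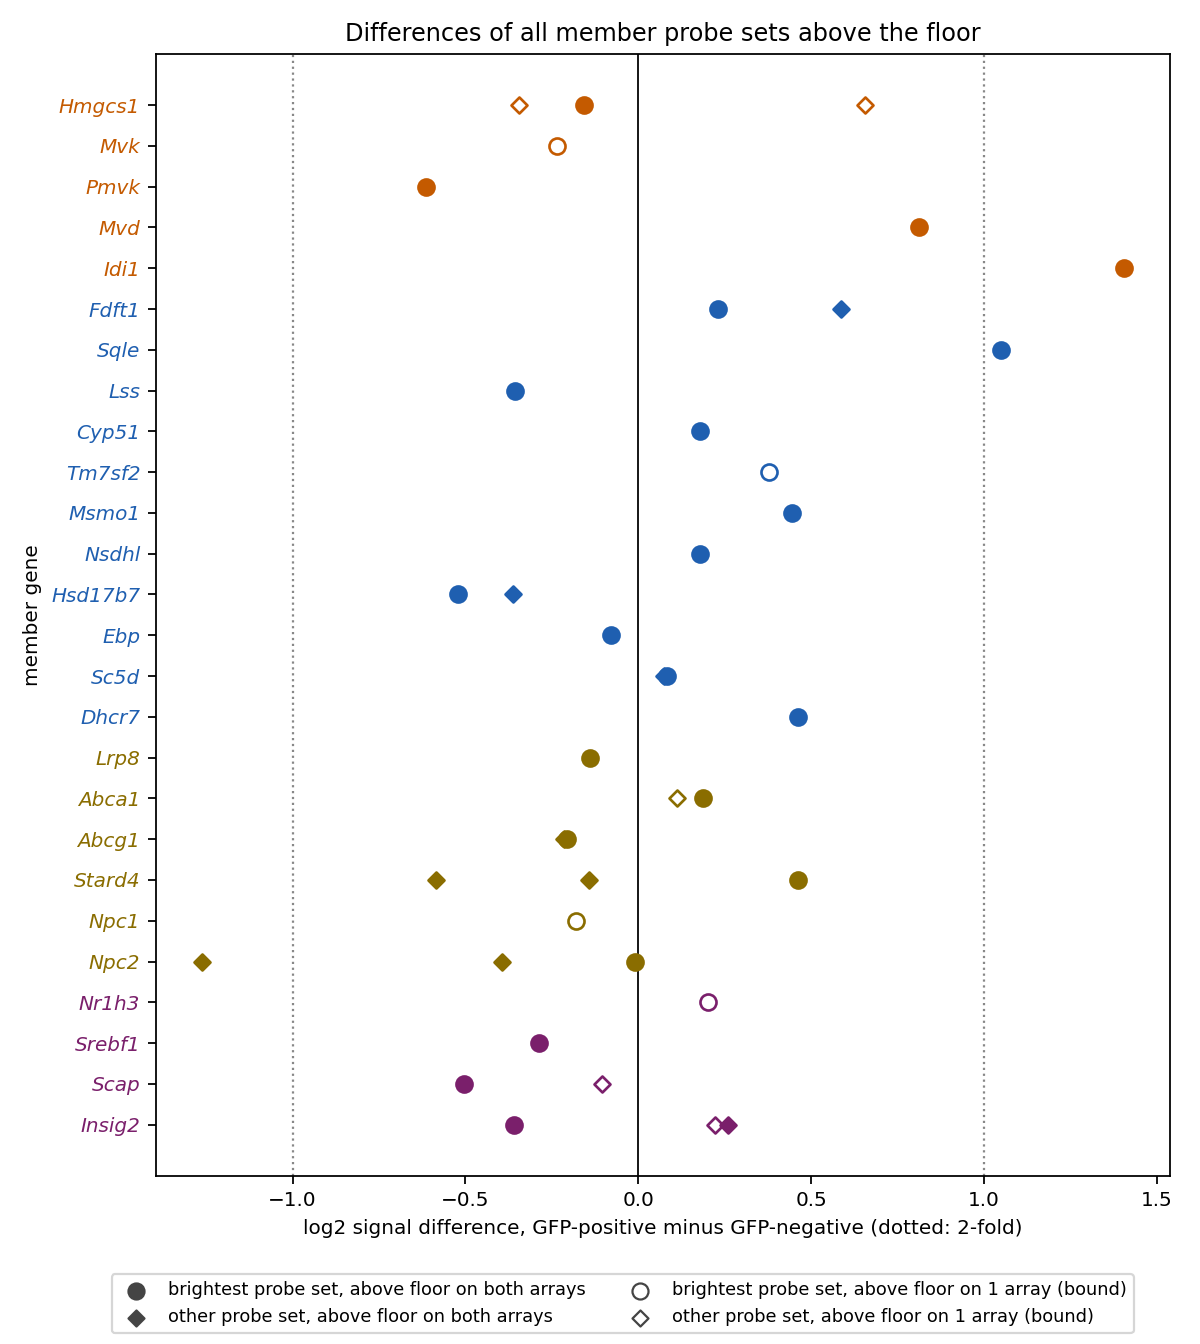
Log2 difference, GFP-positive minus GFP-negative, of each of the 40 probe sets with a signal over the floor on either array, by gene, with the mevalonate path first, then the sterol steps, uptake, efflux and transport, and the sensors. Circles are the brightest probe set of a gene and diamonds its other ones, filled symbols are measured on both arrays and open ones are bounds; the probe sets of Sc5d and Abcg1 coincide, while those of Stard4, Insig2 and Npc2 spread widely.

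Genes of sterol uptake, efflux and transport differed little, with 2 of 6 higher, 4 lower, a median of −0.07 log2 (0.09 with the floor doubled) and 0 past 1.5-fold. Lrp8, a lipoprotein receptor, had signals of 93.6 and 103.0 (−0.14 log2). Abca1 and Abcg1, pumps that export cholesterol and are classic LXR targets, went opposite ways by small amounts: Abca1 had 476.3 and 418.2 (0.19 log2), and Abcg1 708.1 and 817.3 (−0.21 log2). A further probe set of Abcg1 gave 150.1 and 174.2, also −0.21 log2. One of Abca1 gave 74.4 and 57.3, a bound of at least 0.11 log2 higher whose sign the floor fixes.

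Transport genes inside the cell were less clear. Npc2, the lumenal protein that takes cholesterol out of lysosomes, had signals of 5549.3 and 5585.2 with its brightest probe set, 4093.3 and 5384.1 with the next and 96.4 and 231.2 with a dim one, which is −0.01, −0.40 and −1.26 log2. These lay at or under 0 by unequal amounts, and the sign of the brightest one turned under quantile normalization (0.02 log2) and loess (0.0005 log2). Npc1, its membrane partner, had 68.0 and 78.0 and was at least 1.13-fold lower in GFP-positive cells. Stard4, a soluble carrier that moves sterol between membranes, had 346.1 and 251.0 with its brightest probe set (0.46 log2), but 263.5 and 290.6 (−0.14 log2) and 192.4 and 288.4 (−0.58 log2) with the others. No direction can be given for Stard4.

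Among the sterol sensors, Scap had a lower signal in GFP-positive cells by its brightest probe set, and the other members gave no settled direction. The 4 genes above the floor had a median of −0.32 log2, which was −0.22 without a floor and −0.11 with probe sets averaged, and none was past 1.5-fold. Of these, Insig2 had probe sets of opposite sign and Nr1h3 had a bound, whose sign the floor fixes. Scap, the escort of SREBP, had signals of 701.5 and 994.3 (−0.50 log2, or 1.42-fold lower). A further probe set gave 44.0 and 74.1, a bound of at least 0.11 log2 lower whose sign the floor fixes. Scap thus rests on its brightest probe set. Srebf1, which encodes the SREBP that favours fatty acid genes, had 749.4 and 914.7 (−0.29 log2) with its only probe set. That is smaller than the 0.38 log2 scatter between probe sets. Srebf2, which encodes the one that favours cholesterol genes, had 68.2 and 38.3, the first just under the floor, and its other probe set 48.4 and 41.7. Srebf2 was thus not measured above background by either probe set.

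Both Insig genes, whose proteins retain SCAP, gave little. Insig1, itself an SREBP target, was under the floor on both arrays (33.1 and 36.9). Insig2 had 349.7 and 448.9 with its brightest probe set (−0.36 log2) and 424.2 and 354.1 with another (0.26 log2), so its direction is not settled. Nr1h3, which encodes LXR alpha and is best known in macrophages, had 79.2 and 60.0 which is at least 1.15-fold higher in the GFP-positive sort. Of the macrophage and dendritic cell markers, Csf1r had signals of 83.9 and 43.5, Adgre1 94.3 and 79.1, Mpeg1 69.7 and 105.5 and C1qb 14.8 and 77.2. The other 7 of the 11 (Lyz2, Cd68, Itgam, Itgax, Cd14, Marco and C1qa) were under the floor on both arrays. The part of such cells in the Nr1h3 signal was not tested.

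Probe sets of 1 gene are separate readings of the same RNA. Of the 7 members with more than 1 probe set above the floor on both arrays, 5 had the same sign throughout (Fdft1, Hsd17b7, Sc5d, Abcg1 and Npc2) and 2 did not (Stard4 and Insig2). The largest range within a gene was 1.25 log2, in Npc2. Over all 31 member probe sets above the floor on both arrays, 14 were higher and 17 lower in GFP-positive cells, with a median of −0.08 log2. None of the 4 genes with the largest differences (Idi1, Sqle, Mvd and Pmvk) has a further probe set above the floor.

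**Figure D3:**
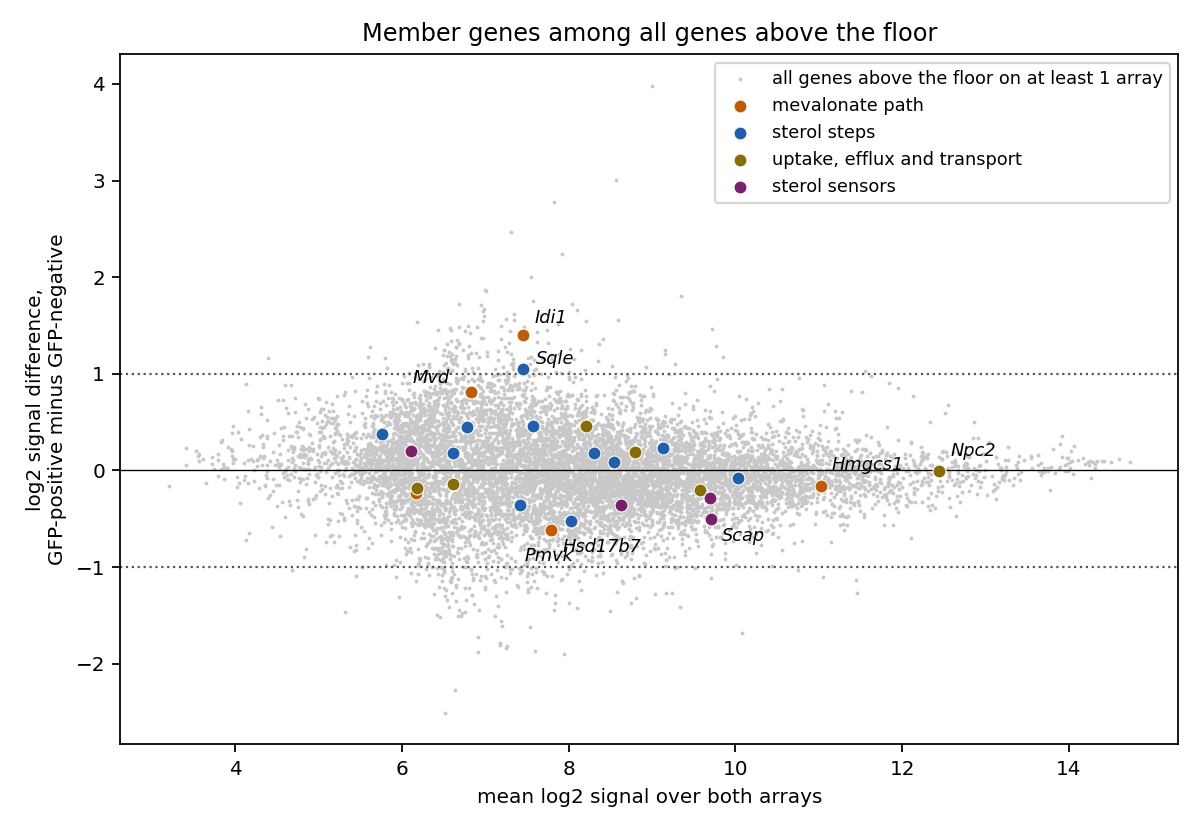
Log2 difference, GFP-positive minus GFP-negative, against the mean log2 signal of both arrays for 9718 genes with a signal over the floor on either array (grey), with 26 members coloured by group and dotted lines at 2-fold. Idi1 and Sqle lie above the upper line at a mean log2 signal between 7 and 8, where the grey cloud is wide, and 0 members lie under the lower line.

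Genes past 2-fold higher were more frequent among dim genes, 2.47% with a mean signal under 300 beside 1.55% of all genes. The part of this in the 2-fold count of members was not tested. All 3 genes past 1.5-fold higher had a geometric mean signal under 300, as had 15 of the 26 members above the floor. Among these 15, 2 were past 2-fold and 3 past 1.5-fold higher, beside 2.47% and 12.1% of the 5468 genes of the same signal range. Of the 11 brighter members, 0 were past 1.5-fold higher.

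Neighbouring pathways were described with 4 further lists. SREBP also drives fatty acid synthesis. Of 16 such genes 10 were above the floor, 5 higher and 5 lower in GFP-positive cells, with a median of −0.03 log2. Of all genes, 48.3% were higher and 51.7% lower. Acsl3 and Pnpla3, among the 5 higher, have bounds, whose sign the floor fixes. With these bounds left out, the median of the remaining 8 was −0.18 log2. Past 1.5-fold, 3 of the 10 (30.0%) were lower and 0 higher, beside 7.52% and 8.04% of all genes. Fasn, the fatty acid synthase, had signals of 432.9 and 808.0 (−0.90 log2). Acss2, which makes acetyl-CoA from acetate, had 200.1 and 340.2 (−0.77 log2), but another probe set gave 195.2 and 119.8 (0.70 log2). Elovl6, a fatty acid elongase, had 112.6 and 177.9 (−0.66 log2), with 1 further probe set lower (70.1 and 145.1) and 1 higher (100.7 and 34.4). Pnpla3, a lipid droplet protein under SREBP control, had 95.1 and 55.0 and was at least 1.38-fold higher. Fasn, with 1 probe set, thus differed in the direction opposite to Idi1 and Sqle. All of them are known SREBP targets, and the part of SREBP in their differences was not tested.

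The branch that spends isoprene units on protein anchors, dolichol and ubiquinone had a median of 0.01 log2 over 12 genes. By their brightest probe sets 8 were higher and 4 lower, beside 48.3% and 51.7% of all genes. For Pggt1b and Nus1, among the 8, another probe set above the floor on both arrays was lower. Ggps1, which makes the geranylgeranyl donor just downstream of Idi1 and Fdps, had signals of 260.4 and 158.7 (0.71 log2), and 2 further probe sets were higher too (221.8 and 169.5, and 158.3 and 99.1). Rabggta, a subunit of the enzyme that prenylates Rab proteins, had 197.7 and 350.1 (−0.82 log2), and Rabggtb, its partner, 1116.2 and 1410.9 (−0.34 log2). Dolk, the dolichol kinase, had 266.9 and 205.9 (0.37 log2). Ggps1 and Rabggta therefore differed in opposite directions, while the Rabggtb difference was smaller than the 0.38 log2 scatter between probe sets. Rabggta and Rabggtb have 1 probe set each.

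Genes that cleave SREBP or serve degradation at the endoplasmic reticulum were lower in 8 of 10 cases by their brightest probe sets, beside 51.7% of all genes lower, and had their median at −0.19 log2. For 2 of those 8 another probe set above the floor on both arrays was higher. Rnf145, a sterol-responsive ubiquitin ligase, had signals of 770.3 and 1009.8 (−0.39 log2), Vcp, the ATPase that extracts proteins from the membrane, 1290.9 and 1645.2 (−0.35 log2), and Aup1, a lipid droplet protein of the degradation pathway, 618.0 and 753.3 (−0.29 log2). Erlin2, a membrane scaffold of the same pathway, was the exception past 1.5-fold at 122.9 and 71.2 (0.79 log2).

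Of the other sterol handling genes, 13 of 15 were lower in GFP-positive cells by their brightest probe sets, beside 51.7% of all genes. Their median was −0.30 log2, beside −0.01 over all genes, and 2 were past 1.5-fold lower. For 6 of the 13 (Acat1, Lipa, Scarb1, Scarb2, Osbpl9 and Nceh1) another probe set above the floor on both arrays was higher. The count thus rests in part on the choice of probe set. By background knowledge Acat1 encodes a mitochondrial thiolase, so its place in a sterol handling list is loose. Lpcat3, an LXR target that remodels phospholipids, had signals of 321.4 and 581.4 (−0.86 log2). Osbpl11, an oxysterol-binding protein, had 425.8 and 673.4 (−0.66 log2), with a second probe set at 103.0 and 110.2. Stard3, a cholesterol tether of late endosomes, had 364.0 and 497.7 (−0.45 log2), and Mylip, the LXR-induced ligase that degrades lipoprotein receptors, 868.5 and 1134.3 (−0.39 log2). The median of this list was −0.10 log2 when probe sets were averaged and −0.09 without a floor.

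**Figure D4:**
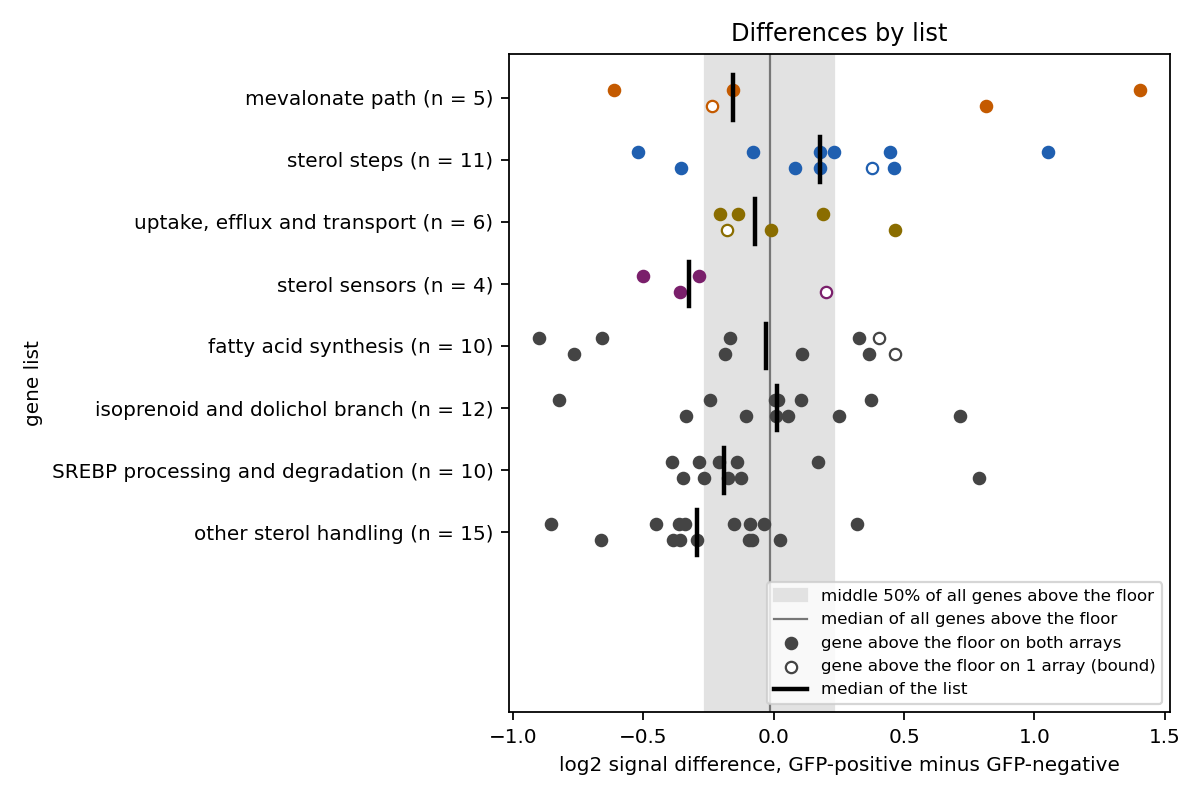
Log2 differences, GFP-positive minus GFP-negative, of genes above the floor in the 4 member groups (coloured) and 4 neighbouring lists (dark), with each list's median as a black bar and the middle 50% of all genes (−0.26 to 0.23) in grey. Sterol steps have their median at 0.18 and sterol sensors at −0.32 (−0.11 with probe sets averaged), and the mevalonate path is split, with Idi1 at 1.41 and Pmvk at −0.61.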

How the data were processed

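RNA of 2 sorted CD4+ T cell populations was extracted with Trizol, and 6 µg were labelled with biotin for 1 array each, per the labels' protocols. The authors deposited 1 intensity per probe set and array and per the submitters' processing notes used MAS5 to summarise them. The sources used here do not state its version, its background settings or any detection calls. Equal trimmed means show that the arrays had been scaled before deposit, and no further scaling was applied.

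The platform annotation pairs 34945 probe sets with 1 symbol, apart from 64 control probe sets. Another 932 have several symbols and 9211 none, and these were not used. The floor is the 90th percentile of the signals of 114 probe sets of 64 tissue-restricted genes (70 listed), of which 12 still passed it as brightest probe sets. Differences are on the log2 scale. With 1 array per group no model was fitted. The arrays' number limits the precision. The steps were tested on simulated data (Python 3.11.15, numpy 2.4.6, pandas 2.3.3, statsmodels 0.14.6). All listed members with a probe set are named. From each neighbouring list the 4 genes with the largest absolute difference are named, and Foxp3 and the cell markers serve as checks. The sterol handling genes named for a further probe set of opposite sign were chosen after their values were seen. The members and lists were chosen with earlier results of these data known. The comparison with genes of mean signal under 300 and the promoters shown were chosen after seeing the data. Alternatives were the floor, quantile normalization, loess (span 0.3), averaged probe sets, probe sets without an a, s or x suffix, and a fold of 1.5.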

Additional observations from a re-analysis of the deposited data

How the results depend on the processing

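In GFP-positive cells, 2 members were higher by 2-fold or more (Idi1 and Sqle), also under quantile normalization and loess. With plain probe sets and among genes of mean signal under 300 the count was 2 as well. The values of Idi1 and Sqle are the same measurements there, so these 2 settings could not change them. This count was 1 with the floor doubled (Idi1) and 1 with probe sets averaged (Sqle, Idi1 then being a bound of at least 0.46 log2), and 3 without a floor and at 1.5-fold. The number at least 2-fold lower was 0, and 1 without a floor (Fdps) and 1 at 1.5-fold (Pmvk). The median of the mevalonate path, −0.16 log2, became 0.39 with probe sets averaged and 0.66 with plain probe sets, which leave out the brightest probe sets of Hmgcs1, Pmvk and Mvd. Over the alternatives the other medians ran from −0.43 to −0.11 log2 for the sensors, −0.18 to 0.09 for uptake, efflux and transport, 0.13 to 0.27 for the sterol steps, −0.01 to 0.07 for all members, −0.18 to −0.002 for fatty acid synthesis, 0.01 to 0.07 for the isoprenoid branch, −0.21 to −0.11 for SREBP processing and −0.30 to −0.09 for other sterol handling. Single genes changed sign in 8 cases: Hmgcs1, Fdft1, Stard4 and Insig2 with probe sets averaged, Hmgcs1 and Stard4 with plain probe sets, and Npc2 under quantile normalization and loess. Averaged, Fdft1 had 59.1, under the floor, and 109.2, which is a bound (−0.67 log2 or lower), although both of its probe sets above the floor on both arrays were higher. The share of all genes past 2-fold higher was 0.714% with the floor doubled (50 genes, 55 lower) and 18.2% without it (3305 genes, 2420 lower). No paired analysis was possible because each group has 1 array. Signal over background limits Fdps, Srebf2 and Insig1, which were under the floor, and Mvk, Tm7sf2, Npc1 and Nr1h3, which have bounds.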
